A study of Mus musculus with 367 samples.

Results

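ADAMTS genes encode secreted zinc metalloproteases that cut proteins of the extracellular matrix. The 9 genes Adamts1, Adamts2, Adamts4, Adamts5, Adamts9, Adamts10, Adamts12, Adamts14 and Adamts15 were followed in single cells of healing mouse skin. They are a named list, drawn up with earlier results of these data known but with no limit on a measured value, and are 9 of the 50600 genes in the deposited files. Full-length RNA was sequenced from 367 cells, each held in a well of a C1 microfluidic chip, in 3 captures from post-wounding day 12, 2 from day 15 and 2 from day 21. All mice were Sm22-Cre;tdTomato animals of mixed background, wounded at 3 to 8 weeks of age per the labels (the study's methods give a narrower range) with a square excision of 1.5 cm on the back, and viable tdTomato-high cells were sorted. Sm22 is another name of Tagln, whose promoter drives the Cre recombinase, so tdTomato marks cells in which that promoter has been active and not a cell type. Tissue of 2 to 3 animals was pooled per time point. The capture was the replicate. The sources do not say if captures held cells of separate mice, so p-values measure the spread between captures, which may be technical.

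Family members carry a signal peptide, a propeptide that is cut off by furin-type proteases, a catalytic domain and a tail with thrombospondin type 1 repeats that holds the enzyme at its substrate. Adamts2 and Adamts14, with Adamts3, remove the amino-terminal propeptide of fibrillar procollagens, a step before collagen molecules pack into fibrils. Adamts1, Adamts4, Adamts5, Adamts9 and Adamts15 can cut large aggregating proteoglycans such as versican, and in skin that cleavage clears the provisional matrix of wounds and developing tissue. Adamts10 binds fibrillin microfibrils, and Adamts12 has been studied as a protease of cartilage oligomeric matrix protein.

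The catalytic center shows what these proteins share and where the genes differ. Below are the 36 coding bases of the zinc-binding stretch of each member, 5′ to 3′ on the coding strand, read from the principal GENCODE M21 transcript with the longest protein on GRCm38. Capitals mark the codons of the 3 histidines that hold the zinc ion and of the catalytic glutamate. In every member an exon junction cuts the stretch. It falls after base 10 in the 4 genes listed here.
Adamts1: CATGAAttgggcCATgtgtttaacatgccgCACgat
Adamts4: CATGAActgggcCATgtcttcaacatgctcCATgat
Adamts5: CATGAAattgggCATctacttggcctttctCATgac
Adamts15: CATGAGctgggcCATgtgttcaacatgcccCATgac
In the other 5 genes the junction falls after base 17.
Adamts2: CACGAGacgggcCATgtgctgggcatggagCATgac
Adamts14: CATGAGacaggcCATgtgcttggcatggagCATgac
Adamts9: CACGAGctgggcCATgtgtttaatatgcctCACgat
Adamts10: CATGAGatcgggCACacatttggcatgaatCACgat
Adamts12: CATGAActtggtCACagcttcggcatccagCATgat
Adamts2 and Adamts14, the procollagen proteases, had the most similar stretches, with 33 of 36 bases identical (91.7%). Adamts4 and Adamts15 shared 32 bases, and Adamts1 and Adamts9 shared 31 although their junctions differ. The lowest value among the pairs was 20 bases (55.6%), found for Adamts5 with Adamts9 and for Adamts9 with Adamts12.

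The stretch lies at chr16:85799536-85799545 in exon 3 and chr16:85799188-85799213 in exon 4 of Adamts1, on the minus strand. For Adamts5, also on the minus strand, it is chr16:85887817-85887826 in exon 2 and chr16:85878012-85878037 in exon 3. The genes Adamts1 and Adamts5 are neighbours on that chromosome, 53.1 kb apart. In Adamts4, on the plus strand, the stretch is chr1:171253210-171253219 in exon 3 and chr1:171253893-171253918 in exon 4. In Adamts15, on the minus strand, it is chr9:30911681-30911690 in exon 2 and chr9:30911252-30911277 in exon 3. The plus-strand gene Adamts2 has it at chr11:50775403-50775419 in exon 7 and chr11:50776119-50776137 in exon 8. The minus-strand genes Adamts14 and Adamts9 have it at chr10:61227107-61227123 in exon 7 and chr10:61225462-61225480 in exon 8 and at chr6:92908477-92908493 in exon 8 and chr6:92905282-92905300 in exon 9. For the plus-strand genes Adamts10 and Adamts12 it is chr17:33538157-33538173 in exon 9 and chr17:33538264-33538282 in exon 10, and chr15:11241529-11241545 in exon 7 and chr15:11255549-11255567 in exon 8.

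Values were FPKM, fragments per kilobase of transcript, scaled to the total of the cell, so levels of different genes are compared per length. Of the 367 cells, 292 were kept, with 27 to 73 per capture. The median estimated depth per capture was between 961178 and 2376143 fragments. Kept cells were sorted into kinds by 3 limits. Matrix cells, 198 in all, had Col1a1 of at least 1000 FPKM, Rgs5 under 100 and Tyrobp under 50. The 57 mural cells had Rgs5 of at least 500 FPKM and Tyrobp under 50, and the 26 myeloid cells had Tyrobp of at least 500 FPKM. The other 11 cells met no rule. Few cells lay near the level each kind had to reach, of Col1a1 for matrix, Rgs5 for mural and Tyrobp for myeloid cells. There were 2 matrix, 3 mural and 0 myeloid cells just above it and 2, 1 and 0 just below. Cells near the upper limits on Rgs5 and Tyrobp were not counted. There were 0 pairs of cells with identical values. The kinds held their own markers beyond the genes of the rule. At 1 FPKM or more in at least 50% of the cells of their kind were 8 of 8 matrix fibroblast markers, 8 of 9 mural markers and 9 of 9 myeloid markers. The summed level of the 9 myeloid markers was 1.86 to 73.6 FPKM in captures of matrix and mural cells and 21723.3 to 35199.6 in those of myeloid cells. Matrix markers were less separate. Their sum was 16773.7 to 33517.5 FPKM in matrix, 3506.1 to 12961.2 in mural and 68 to 11086.8 in myeloid cells. The 6 endothelial markers summed to at most 39.2 FPKM, in mural cells.

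Most matrix and mural cells held several members, and most myeloid cells held none. A matrix cell had 4.04 ± 0.543 of the 9 transcripts at 1 FPKM or more (mean ± SD, n = 7 captures), a mural cell 3.71 ± 0.254 (n = 5) and a myeloid cell 0.905 ± 0.504 (n = 4). Only 2 of 198 matrix cells had none, against 0 of 57 mural and 15 of 26 myeloid cells. The summed level of the 9 genes was 182.2 ± 44.8 FPKM in matrix, 256.2 ± 139.8 in mural and 29.9 ± 29.1 in myeloid cells. The mural and matrix ranges overlapped, at 107.9 to 443.5 and 111.0 to 254.7 FPKM, while the myeloid sum reached at most 63.3 FPKM. Myeloid cells were the deepest kind, with a median of 2106175 fragments against 1458469 in matrix and 1216900 in mural cells. They had the lowest median of genes above 0, at 4962 against 5808 and 5181.

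**Figure D1:**
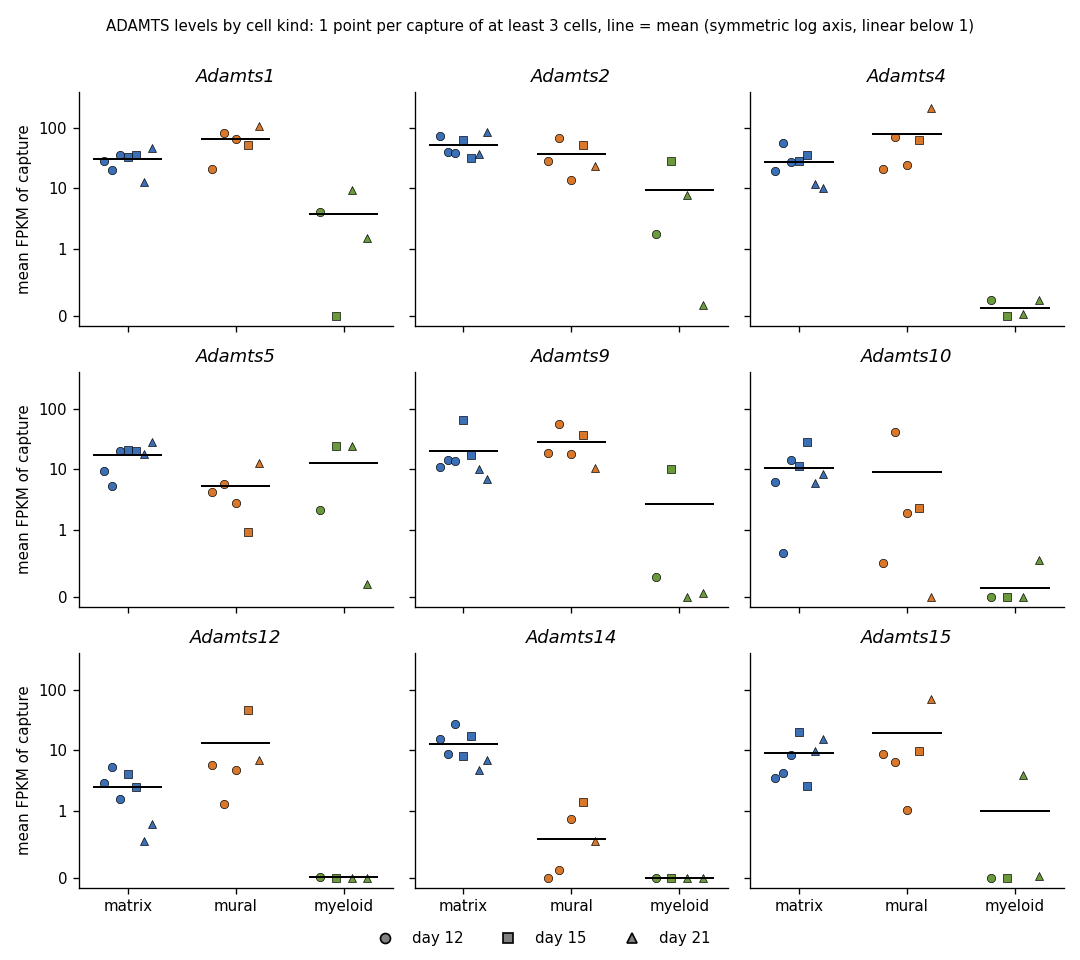
Mean FPKM of each ADAMTS gene (vertical axis, linear below 1 and logarithmic above) in matrix, mural and myeloid cells, with 1 point per capture of at least 3 cells, shaped by day, and a line at the mean of captures. The capture means of Adamts14 do not overlap between matrix and mural cells, with the lowest matrix capture at 4.60 FPKM and the highest mural capture at 1.37. Adamts4 is at most 0.238 FPKM in every myeloid capture.

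In matrix cells Adamts2 was the most abundant member, at 53 ± 21.1 FPKM (SD, n = 7 captures). It was followed by Adamts1 at 30.4 ± 11.3, Adamts4 at 27.1 ± 15.7, Adamts9 at 19.7 ± 20.4 and Adamts5 at 17.4 ± 7.81. Adamts14 at 12.4 ± 7.75, Adamts10 at 10.7 ± 8.81, Adamts15 at 9.03 ± 6.47 and Adamts12 at 2.48 ± 1.70 FPKM were lower. Each neighbouring pair in this order differed by less than the sum of their SDs. Adamts2 was first in 4 of 7 captures, Adamts4 in 2 and Adamts9 in 1. In mural cells the order opened with Adamts4 at 78.8 ± 78.8, Adamts1 at 65.4 ± 32.2, Adamts2 at 37.3 ± 22.5 and Adamts9 at 27.9 ± 18.3 FPKM (n = 5). Adamts15 at 18.9 ± 28.2, Adamts12 at 12.9 ± 18.7, Adamts10 at 9.07 ± 17.7 and Adamts5 at 5.31 ± 4.61 came next. Adamts14 closed it at 0.578 ± 0.560 FPKM. Neighbours there also differed by less than the sum of their SDs, Adamts5 and Adamts14 included.

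Single cells carried these transcripts unevenly. Adamts2 was the exception, with 91.9% of matrix cells at 1 FPKM or more (95% Clopper-Pearson interval 87.2 to 95.3). The shares for Adamts1, Adamts4, Adamts5 and Adamts9 were 58.6%, 53.5%, 52.5% and 46%. Adamts14 reached 35.4%, Adamts15 26.3%, Adamts12 23.2% and Adamts10 19.2%. Where a gene was in few cells, most of its RNA sat in a small share of cells, which follows in part from the shares above. The highest 10% of matrix cells held 95.0% of the Adamts10 sum and 89.0% of the Adamts15 sum, against 40.1% for Adamts2. One matrix cell of day 15 capture 1 had 2028.9 FPKM of Adamts9, which was 62% of that gene's sum in the capture. Nearly all cells with another member also held Adamts2, from 89.4% of the Adamts5 cells to 96.2% of the Adamts15 cells, beside its share of 91.9% in all matrix cells. Levels of the members were weakly related. Over the 198 matrix cells, which share libraries and differ in depth, Spearman's rho between members lay between -0.08 and 0.20 with a median of 0.06 over 36 pairs. The highest value belonged to the chromosome 16 neighbours Adamts1 and Adamts5, which were both at 1 FPKM or more in 68 cells, 58.6% of the Adamts1 cells and 65.4% of the Adamts5 cells.

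**Figure D2:**
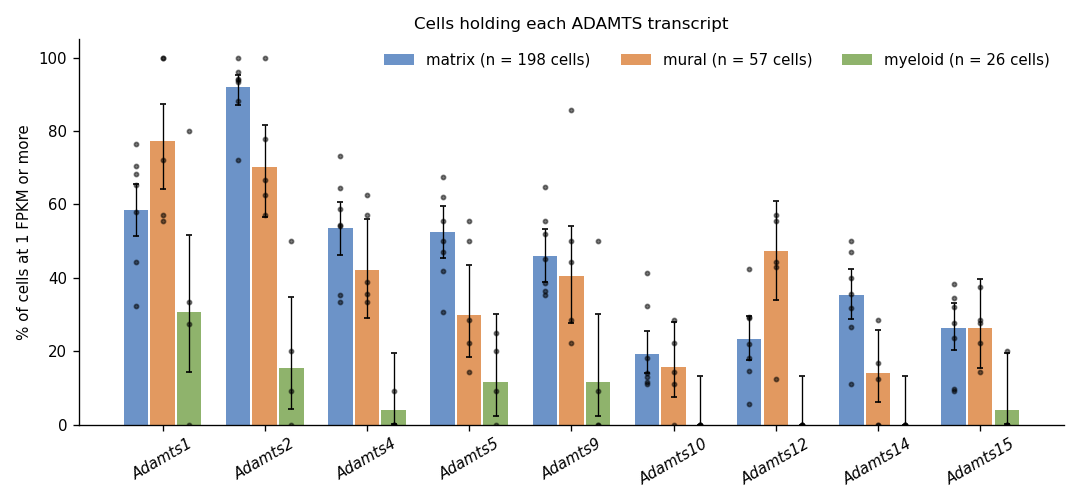
Percent of cells at 1 FPKM or more for each member, as bars by kind with 95% Clopper-Pearson intervals over all kept cells of the kind and a dot for each capture of at least 3 cells. Adamts2 is in 91.9% of matrix cells, Adamts12 in 47.4% of mural against 23.2% of matrix cells, and Adamts10, Adamts12 and Adamts14 are in 0 of 26 myeloid cells.

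The comparison of mural with matrix cells asked which members differ between cells with high Rgs5 and cells with high Col1a1. Adamts14 stood lowest in mural cells relative to matrix cells. In the captures of day 12 its mean was 0.0, 0.116 and 0.869 FPKM in mural cells against 15.0, 8.72 and 26.8 in matrix cells. At day 15 capture 1 the values were 1.37 against 8.03, and at day 21 capture 1 0.539 against 4.60 FPKM. Mural means were thus below matrix means in 5 of 5 captures, with no overlap between the capture means of the kinds. Single cells did overlap, with Adamts14 at 1 FPKM or more in 70 of 198 matrix cells (35.4%) and 8 of 57 mural cells (14%). The difference in log2(mean FPKM + 1) was -2.96 (standard error 0.66, 95% interval -4.42 to -1.50), with an adjusted p of 0.056 from limma over 13823 genes, just short of the threshold of 0.05. The call depended on the setting. With each cell rescaled to the same total the adjusted p was 0.049, with stricter limits for the kinds 0.044, with the mean of single-cell log2 values 0.036 and without the capture block 0.028. The range over all alternatives except left-out captures was 0.028 to 0.26. Adamts14 was the 1 member lower in every capture, as were 8.47% of all genes, and 0 members were higher in every capture, as were 4.73% of all genes.

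Adamts2, the other procollagen protease of the list, overlapped between the kinds. Its mural means were 28.6, 68.8 and 13.6 FPKM at day 12, 51.9 at day 15 and 23.6 at day 21, against 74.8, 40.2, 38.2, 63.3 and 37.5 FPKM in the matrix cells of the same captures. Its difference was -0.59 (standard error 0.50, adjusted p = 0.64 from limma), with an interval of -1.70 to 0.52. Whether Adamts2 and Adamts14 differ in this contrast was not tested.

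Of the 9 members 0 passed the threshold between mural and matrix cells with limma, while 1.71% of all genes passed. An unadjusted p under 0.05 was found for 1 member and for 1976 of all 13823 genes. The median of all genes was -0.22 and that of the members 0.23. Adamts1, a versican protease, had the higher mean in mural cells in 4 of 5 captures. Its mural values were 20.8, 81.9, 66.2, 51.7 and 106.6 FPKM against 28, 20.2, 35.3, 33.5 and 12.8 in matrix cells. The difference was 1.2 (standard error 0.57, adjusted p = 0.37), with an interval of -0.06 to 2.47. Adamts4 and Adamts12 leaned the same way at 1.09 (standard error 0.65) and 1.22 (0.77), and Adamts5 leaned to matrix cells at -1.46 (0.71, adjusted p = 0.39). Each of these had its direction in 4 of 5 captures.

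Single cells carried much of some mural means. In mural cells of day 21 capture 1 Adamts4 had a mean of 213.7 FPKM, of which 1 of 8 cells supplied 86.5%. The mean of the other cells was 33 FPKM. Adamts15 in that capture went from 69 to 0.341 FPKM without its highest cell. For Adamts12 in day 15 capture 1 the mean of 46.1 FPKM became 13.1. Without day 21 capture 1 the Adamts4 difference was 0.35 and that of Adamts15 was -0.39, so the direction of the latter rests on that capture. Counted in cells, Adamts12 was at 1 FPKM or more in 27 of 57 mural cells (47.4%, interval 34 to 61) and in 46 of 198 matrix cells (23.2%, 17.5 to 29.7). By day the shares were 50% of mural against 33.8% of matrix cells at day 12, 57.9% against 20.8% at day 15 and 12.5% against 11.5% at day 21, the last with 8 mural cells. These intervals, and all limits from a count of 0, cover counting error only.

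**Figure D3:**
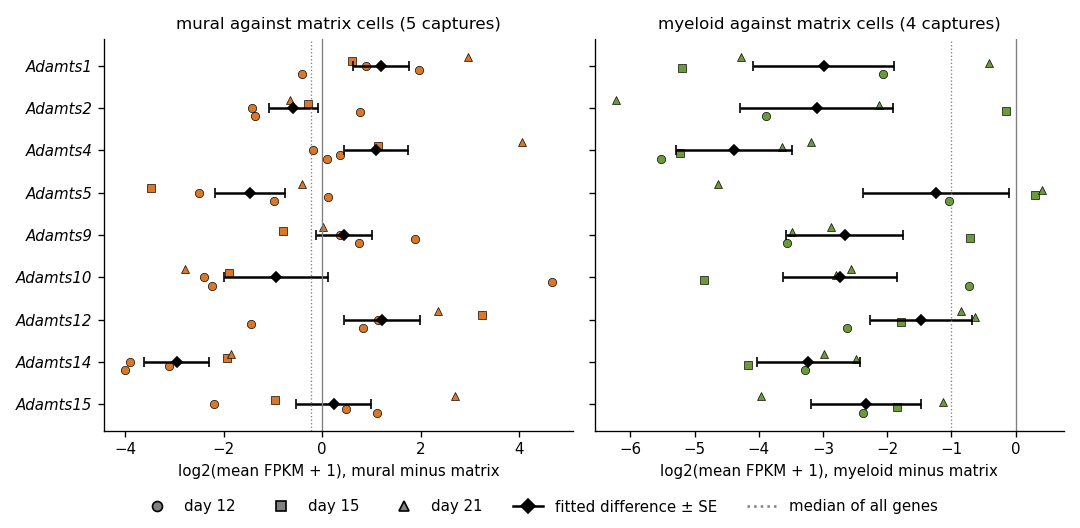
Differences in log2(mean FPKM + 1) between mural and matrix cells (left, 5 captures) and between myeloid and matrix cells (right, 4 captures), with captures as symbols by day, the fitted difference ± SE as a diamond and the median of all genes as a dotted line. Adamts14 lies at -2.96 in mural and -3.23 in myeloid cells, and Adamts5 in myeloid cells has captures on both sides of 0.

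Myeloid cells had lower fitted values for all members. Adamts4, a versican and aggrecan protease, and Adamts14 fell in myeloid relative to matrix cells, which is 2 of 9 members where 4.9% of all 13059 genes tested were lower. All 9 fitted differences were negative, with a median of -2.74. The median of all genes was itself -1.0 in this comparison, so differences are also given relative to it. Adamts4 had means of 0.238, 0.0, 0.032 and 0.233 FPKM in the myeloid cells of day 12 capture 2, day 15 capture 2 and day 21 captures 1 and 2. Matrix cells of these captures had 55.7, 36.2, 11.9 and 10.3 FPKM. The capture means of the kinds did not overlap. The difference was -4.39 (standard error 0.90, adjusted p = 0.025 from limma), or -3.39 relative to the median of all genes.

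Adamts14 was listed at 0 in all 4 myeloid captures, against 8.72, 17.0, 4.60 and 6.90 FPKM in matrix cells. Its difference of -3.23 (standard error 0.80, adjusted p = 0.040) therefore depends on the pseudocount. Relative to the median of all genes it was -2.23. Adamts14 was at 1 FPKM in 0 of the 26 myeloid cells, a count that leaves room for a share of 11.5%, and the same held for Adamts10 and Adamts12. The 1 myeloid cell with any Adamts14 had 0.13 FPKM and belonged to a capture outside the test. Both calls depended on single captures. Leaving out day 12 capture 2, day 15 capture 2 or day 21 capture 1 ended that of Adamts4 (adjusted p = 0.072, 0.055 and 0.064), while without day 21 capture 2 it was 0.049. Leaving out any 1 of the 4 captures ended that of Adamts14, with adjusted p between 0.089 and 0.11. Quantile normalized means gave -2.96 for Adamts4 (adjusted p = 0.15) and -2.01 for Adamts14 (adjusted p = 0.16).

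Adamts2 had -3.10 (standard error 1.19, adjusted p = 0.12), Adamts1 -2.99 (1.10, adjusted p = 0.11), Adamts10 -2.74 (0.89, adjusted p = 0.079), Adamts9 -2.66 (0.91, adjusted p = 0.093) and Adamts15 -2.33 (0.85, adjusted p = 0.11) in the same limma fit. For Adamts12 the difference was -1.47 (0.79) and for Adamts5 -1.24 (1.14). Relative to the median of all genes Adamts12 was at -0.47 and Adamts5 at -0.24, so both lay near the typical gene. On that scale Adamts2, Adamts1, Adamts10, Adamts9 and Adamts15 were at -2.1, -1.99, -1.74, -1.66 and -1.33. With Adamts4 and Adamts14, 8 members were lower in 4 of 4 captures, as were 26.4% of all genes, and 0 were higher in all 4, as were 5.34% of all genes. Adamts5 was the exception. Its myeloid means were 2.08, 24.7, 24 and 0.187 FPKM against 5.29, 19.9, 17.7 and 28.7 in matrix cells, so it was higher in 2 captures and lower in the other 2.

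Adamts5 was at 1 FPKM or more in 3 of the 26 myeloid cells, at 22.9, 98 and 120.1 FPKM. All 3 also held collagen RNA, with Col1a2, which encodes a chain of type I collagen, at 1686.4, 5806.8 and 3433.3 FPKM. In all, 4 myeloid cells had Col1a2 of at least 100 FPKM, a limit set after the values were seen, with a range of 1686.4 to 6009.9 against 0.63 to 74.9 in the other 22. Adamts2 was at 1 FPKM or more in 4 of these 4 cells and in 0 of the other 22, where it reached at most 0.47 FPKM. Adamts5 was in 3 of 4 and 0 of 22. Adamts1 differed from both, with 2 of 4 and 6 of 22, though in the 22 cells it did not exceed 4.51 FPKM. The 4 cells had Tyrobp at 1343.4 to 2708.0 FPKM, the other 22 at 2353.9 to 8317.3, and they had 4990 to 9284 genes above 0 against 2869 to 8474. Per the study's methods wells with more than 1 cell were removed by microscopy, and whether these wells held 2 cells was not tested here. Without the 4 cells, 3 captures with at least 3 myeloid cells remained. The fitted differences there were -5.60 for Adamts2 and -3.84 for Adamts5, given as a description, since the cells left out were those that held these transcripts. Of the members called with all cells, Adamts4 was at -4.22 (adjusted p = 0.032 from limma) and Adamts14 at -2.92 (adjusted p = 0.064), where 9.02% of all genes were lower and the median of all genes was -1.23. The Adamts4 value is also a description. Its 1 myeloid cell at 1 FPKM or more, with 2.62 FPKM, was among the 4 cells left out.

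**Figure D4:**
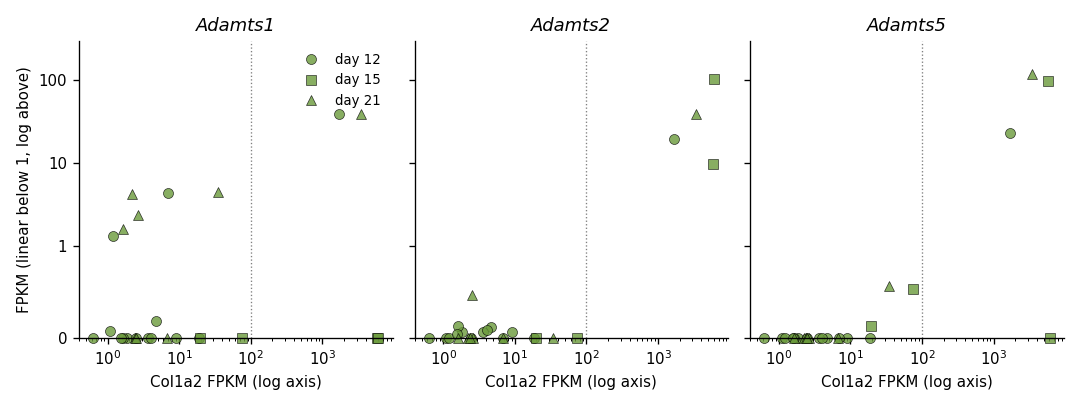
FPKM of Adamts1, Adamts2 and Adamts5 (vertical axis, linear below 1 and logarithmic above) against Col1a2 FPKM (logarithmic axis) in the 26 kept myeloid cells, shaped by day, with a dotted line at 100 FPKM of Col1a2. Every cell with Adamts2 or Adamts5 at 1 FPKM or more lies right of the line, while 6 cells with Adamts1 lie left of it.

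Matrix cells of days 12, 15 and 21 were compared to ask whether the proteases differ as the wound matures. With limma 0 of 9 members and 0 of 13552 genes passed the threshold over the 3 days (0.0%), and 892 genes had an unadjusted p under 0.05. Between days 21 and 12 again 0 members passed, where 1 gene of the 13552 did (0.00738%). Adamts4 alone among members had an unadjusted p under 0.05 there, as had 968 of all genes. Adamts12 was the 1 member whose share of cells above 0 FPKM was ordered by day. It was detected above 0 FPKM in 13 of 31, 16 of 26 and 11 of 17 matrix cells of the day 12 captures, in 18 of 50 and 5 of 22 at day 15 and in 1 of 18 and 5 of 34 at day 21. Its shares were thus 41.9%, 61.5% and 64.7%, then 36% and 22.7%, then 5.56% and 14.7%, with no overlap between days. The same descending order above 0 FPKM was found for 1.37% of all genes. At 1 FPKM or more Adamts12 kept this order, and Adamts4 had it as well. The share of all genes with that order at 1 FPKM or more was not computed. The Adamts4 shares were 64.5%, 73.1% and 58.8% at day 12, 54% and 54.5% at day 15 and 33.3% and 35.3% at day 21. The day 21 captures were the deepest, at medians of 2148781 and 2376143 fragments. Their median genes above 0 were 5887 and 5406, against 6233, 6200 and 5831 at day 12 and 5339 and 4845 at day 15. In mean level Adamts12 overlapped between days 12 and 15, and both day 21 captures were lower. Its means were 2.81, 5.22 and 1.57 FPKM at day 12, 3.97 and 2.47 at day 15 and 0.548 and 0.798 at day 21. The Adamts12 difference between days 21 and 12 was -1.24 (standard error 0.87, adjusted p = 0.79 from limma), with an interval of -3.15 to 0.68.

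Adamts4 had 19.5, 55.7 and 27.6 FPKM at day 12, 28.4 and 36.2 at day 15 and 11.9 and 10.3 at day 21. Both day 21 captures were below all others. The difference between days 21 and 12 was -1.42 (standard error 0.62, unadjusted p = 0.044, adjusted p = 0.69 from limma). Adamts14 had 15.0, 8.72 and 26.8 FPKM at day 12, 8.03 and 17.0 at day 15 and 4.60 and 6.90 at day 21. Its difference was -1.29 (standard error 0.75, adjusted p = 0.76), and its detected share was 11.1% and 29.4% at day 21 against 35.5% to 64.7% at day 12. Adamts9 was at 10.8, 14.3 and 13.5 FPKM at day 12, 65.5 and 17.1 at day 15 and 10.2 and 6.82 at day 21. The day 15 high point was the capture with the cell of 2028.9 FPKM, and without that cell its mean was 25.4.

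Other members pointed the opposite way. Adamts5 was detected in 46.2% to 64.5% of matrix cells at day 12, 78% and 59.1% at day 15 and 66.7% and 76.5% at day 21. Its means were 9.24, 5.29 and 20.1 FPKM, then 20.9 and 19.9, then 17.7 and 28.7, with a difference of 1.09 (standard error 0.70, adjusted p = 0.78). Adamts15 had 3.45, 4.15 and 8.26 FPKM at day 12 and 9.83 and 15.1 at day 21, with 19.8 and 2.57 at day 15, and a difference of 1.15 (standard error 0.91, adjusted p = 0.82). The differences of Adamts1, Adamts2 and Adamts10 were -0.13, 0.21 and 0.50, with standard errors of 0.65, 0.58 and 0.99. In mean level 4 members, Adamts4, Adamts9, Adamts12 and Adamts14, had both day 21 captures below all 3 day 12 captures, as had 14.4% of all genes. Adamts15 was the 1 member with both above, as were 7.98% of all genes. In share of cells above 0 FPKM 3 members, Adamts2, Adamts12 and Adamts14, lay lower at day 21 without overlap, as did 18.8% of all genes. Adamts5 lay higher by the same count, as did 5.34%.

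**Figure D5:**
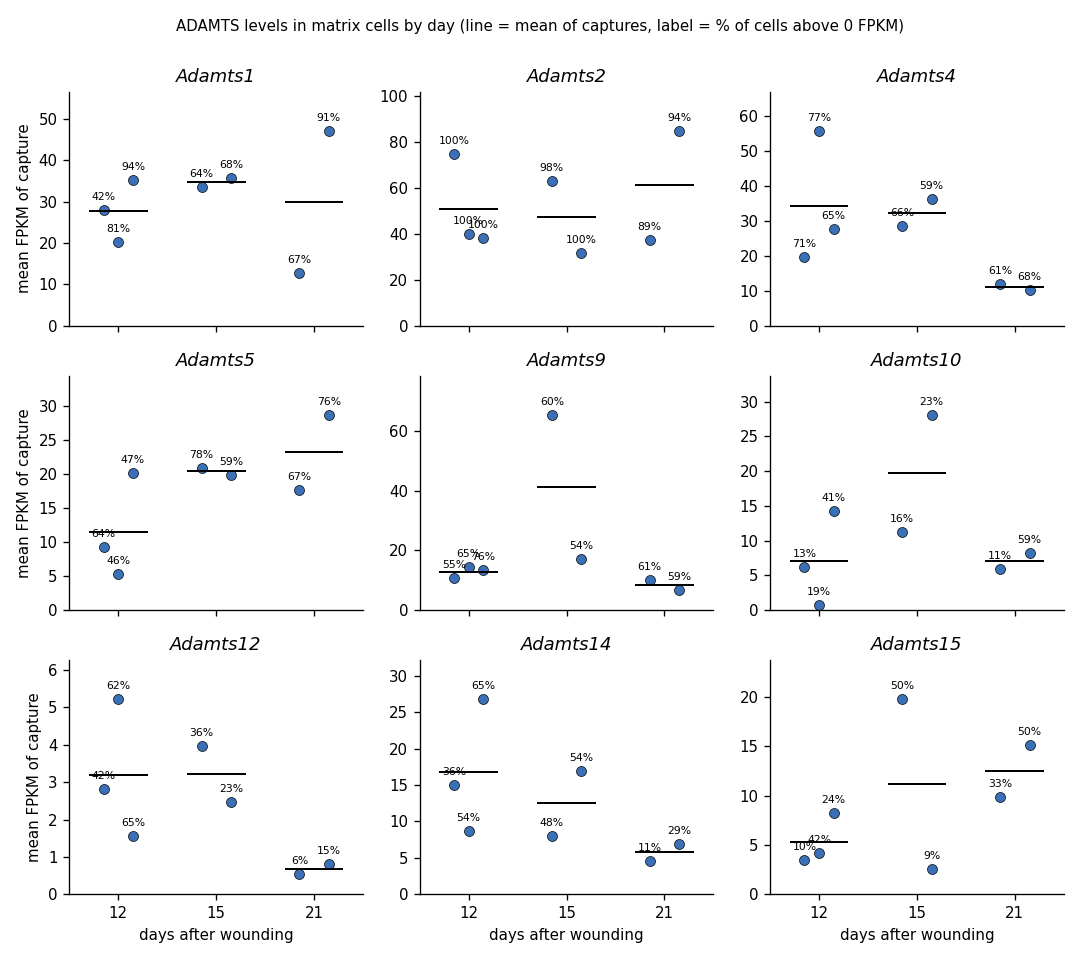
Mean FPKM of each member in matrix cells (vertical axis) by days after wounding, with 1 point per capture, its percent of cells above 0 FPKM as a label and a line at the mean of captures. Adamts12 labels lie between 41.9% and 64.7% at day 12 and at 5.56% and 14.7% at day 21, while Adamts1 and Adamts2 captures of the days overlap.

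The mural to matrix difference was also compared between day 12 and the later days. With limma 0 of 9 members and 0 of 13823 genes passed (0.0%), and 754 genes had an unadjusted p under 0.05. Adamts12 had the largest value, 2.63 (standard error 1.19, adjusted p = 0.90), followed by Adamts4 at 2.51 (1.19, adjusted p = 0.90). The intervals of both spanned 0, at -0.18 to 5.43 and -0.31 to 5.33.

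Of the 10 other ADAMTS genes, 6 reached a mean of 1 FPKM in matrix or mural cells. Adamts3, the third procollagen protease, was above 0 FPKM in 4 of 198 matrix cells, with a mean over cells of 2.03 FPKM. Adamts6, a relative of Adamts10, had a mean over cells of 3.94 FPKM in matrix and 0.595 in mural cells, Adamts7, a relative of Adamts12, 6.02 and 5.83, Adamts16 4.15 and 1.28, Adamts17 3.25 and 8.75 and Adamts18 3.98 and 0.854. Single cells carried much of some of these means. The highest matrix cell had 373.2 FPKM of Adamts3, and the highest mural cell had 348.9 FPKM of Adamts17. None of the 10 genes passed the test in the comparisons of days, of mural or of myeloid cells, with 5 or 6 of them tested in each. ADAMTS-like proteins share the tail of the family and lack the protease. Adamtsl1 was as abundant as Adamts2 within the spread, at 57 ± 32.3 FPKM in matrix cells (SD, n = 7) against 14 ± 17.5 in mural cells (n = 5), a difference of -2.96 (standard error 0.86, adjusted p = 0.14). Against myeloid cells 2 of 4 tested ADAMTS-like genes were lower, Adamtsl1 at -4.46 (adjusted p = 0.049) and Adamtsl5 at -3.86 (adjusted p = 0.031). Under the alternatives their adjusted p reached 0.26 and 0.20.

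Listed substrates and matrix partners leaned to matrix cells, a kind that was itself set by a collagen gene. Of 18 tested substrates and matrix partners 8 were lower in mural than in matrix cells and 0 higher, with a median of -1.84, where 0.76% of all genes were lower. Each of the 8 calls ended under at least 1 alternative, with highest adjusted p of 0.13 to 0.35. The genes were Dcn, Lum, Fbln2, Col1a1, Col1a2, Col3a1, Col5a1 and Thbs2, with Lum at -3.48 (adjusted p = 0.025) and Col1a2 at -2.01 (adjusted p = 0.00089). Col1a1 set the limit of the matrix cells, so its place here is given by the rule. Dcn, Lum, Col1a2 and Col3a1 were also among the matrix fibroblast markers that described the kinds. The count is therefore in part a restatement of the kinds and not a result about protease substrates. Vcan, the versican core protein, was in 93.9% of matrix and 43.9% of mural cells at 1 FPKM or more, at 110.5 ± 46.9 and 31.7 ± 22.4 FPKM, and differed by -1.88 (standard error 0.45, adjusted p = 0.074). Fbln1, a cofactor of Adamts1, differed by -2.61 (adjusted p = 0.065). Between myeloid and matrix cells 10 of 17 were lower and 0 higher, where 4.9% of all genes were lower. Vcan was among the 10 at -4.48 (adjusted p = 0.033 from limma). Col1a1 was also among them, and its place is again given by the rule. The matrix fibroblast markers Dcn, Lum, Fbln1, Col1a2 and Col3a1 were among them too. These calls too ended under at least 1 alternative, with highest adjusted p of 0.15 to 0.30. Over the days 0 of 18 passed. In matrix cells Vcan had 72.1, 63.5 and 92.9 FPKM at day 12, 140.8 and 142.8 at day 15 and 187.2 and 74 at day 21.

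Timp3, the tissue inhibitor that blocks several ADAMTS proteases, leaned to mural cells. It had 167.3 ± 85.2 FPKM there (SD, n = 5) and 63.2 ± 59.4 in matrix cells (n = 7), was higher in 5 of 5 captures and differed by 2.29 (standard error 0.73, adjusted p = 0.18). In matrix cells it had 52.5, 16.1 and 2.29 FPKM at day 12, 66.3 and 19.5 at day 15 and 127.3 and 158.4 at day 21. The last captures were above all others, and the difference between days 21 and 12 was 3.31 (standard error 1.00, unadjusted p = 0.0073, adjusted p = 0.51). Lrp1, a receptor that clears Adamts4 and Adamts5 from outside the cell, had 40.8 ± 15.1 FPKM in matrix and 18.1 ± 18.1 in mural cells (difference -1.61, adjusted p = 0.30). Bmp1, the carboxy-terminal procollagen protease, was at 90.2 ± 32.4 and 77.6 ± 49.9 FPKM (difference -0.55, adjusted p = 0.59). Of the 12 tested genes for inhibitors, clearance and processing 0 passed against mural cells. Against myeloid cells 2 were lower, Pcsk5, a furin-type protease, at -3.91 (adjusted p = 0.033) and Pcolce, an enhancer of Bmp1, at -4.30 (adjusted p = 0.029). Under the alternatives their adjusted p reached 0.21 and 0.24.

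The genes most like each member in pattern were read over 16 means, 7 of matrix, 5 of mural and 4 of myeloid cells, among 14022 genes. The points share captures, and some rest on 3 cells. Adamts2 was closest to Cttn (Pearson's r = 0.96), Calu (0.94) and Sparc (0.93), and Adamts14 to Neo1 (0.96), Cad (0.94) and Col24a1 (0.93). Adamts1 was closest to Prrx1 (0.93), Rab34 (0.92) and Osmr (0.90). For Adamts4 the genes were Ubtd1 (0.94), Psmd9 (0.93) and Ppm1k (0.93), and for Adamts9 Lims1 (0.90), Lgalsl (0.89) and Snai2 (0.89). Adamts5 was led by Ly6a (0.90), Fam192a (0.86) and Galnt2 (0.86). Adamts10 was led by Zfp949 (0.89), Helb (0.88) and Trim12c (0.86), Adamts12 by Pik3ca (0.88), Tspan17 (0.88) and Zfp51 (0.87) and Adamts15 by Tmem14a (0.88), Rftn2 (0.86) and Psmd9 (0.86). Among the members themselves Adamts1 and Adamts4 had the highest value, 0.88, and Adamts5 and Adamts12 the lowest, -0.29.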

How the data were processed

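Full-length RNA of single cells was used from 3, 2 and 2 captures at days 12, 15 and 21, grouped by the titles of the samples. Per the labels the authors aligned reads to mm10 with Bowtie 1.0.0 and quantified them with RSEM, and the values the authors deposited were taken as FPKM, from the methods and the steps between values. They hold no counts, so no count test was run. FPKM divides by the total of a cell, so a few abundant genes can move all others. The members and lists were chosen with earlier results of these data known. Symbols come from GENCODE M21, with 50376 identifiers matched and 224 not.

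Fragments per cell were estimated from the steps between FPKM values of 9426 single-transcript genes of at least 1000 bases, with an assumed fragment length of 300. Cells were kept if they passed the study's minimum of reads and did not exceed 11000 genes or a mitochondrial share of 15%. Capture means entered as log2(mean FPKM + 1), a scale that understates the change of low genes. They were tested with limma 3.58.1 in R 4.3.3 with a variance trend, over genes averaging 1 FPKM or more, Benjamini-Hochberg adjusted over all of them, two-sided, at a threshold of 0.05. For kinds, captures holding 3 or more cells of each entered, with the capture as a block. No doublet caller was run, since the study kept wells seen under the microscope to hold 1 cell. Numbers of captures did not pair them, since deviations of same-numbered captures correlated by at most 0.025. All 9 members are described, and other genes are named if they passed a comparison or are known partners of a member. Alternatives were pseudocounts, filters, scalings, cell filters, limits of the kinds, blocks and each capture left out. A pair that leaves out myeloid cells with collagen RNA was added after seeing the data. Python 3.11.15 with numpy 2.4.6, pandas 2.3.3 and scipy 1.17.1 was used.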

Additional observations from a re-analysis of the deposited data

Results flagged for a closer look

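Of the 292 kept cells, 11 met none of the rules for matrix, mural or myeloid cells and entered no comparison. Members at 1 FPKM or more in more than 3 of these cells are given first, a cut that does not separate presence from absence. Adamts1 was at 1 FPKM or more in 7 of these 11 cells, with a mean of 60.7 FPKM. Adamts2 was also in 7 of 11, with a mean of 35.9 FPKM, Adamts5 in 6, Adamts4 in 5 and Adamts9 in 4. Adamts10, Adamts12 and Adamts14 were in 2 of 11 cells and Adamts15 in 1.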

How the results depend on the processing

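The capture means rest on 3 to 50 cells, FPKM holds no counts, and the spread between captures limits every test. Of the differences of members under alternatives other than a left-out capture, 273 kept their direction and side of the threshold, 20 newly passed it, 9 no longer passed and 4 turned. The day 21 minus day 12 difference of Adamts1, -0.13, was 0.02 with quantile normalized means and 0.06 with the replicate block. That of Adamts2, 0.21, was -0.15 with the mean of single-cell log2 values and -0.01 with all deposited cells. With 1 capture left out it ranged from -1.03 to 0.77 for Adamts1, from -0.37 to 0.79 for Adamts2 and from -0.38 to 1.22 for Adamts10, and the mural difference of Adamts15 ranged from -0.39 (without day 21 capture 1) to 0.83. In each of these the cause was not tested.

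Over all genes, the test over 3 days called 2 genes with a pseudocount of 10 or all deposited cells, 3 with quantile normalized means or stricter limits of the kinds and 70 with single-cell log2 values, against 0. Day 21 against day 12 called 1 gene, 0 with a pseudocount of 0.1, no filter, rescaled cells, the replicate block or any left-out capture (0 to 0), 70 with single-cell log2 values and 2 with stricter limits. Capture numbers did not pair the samples, with correlations of deviations from -0.007 to 0.025. Mural against matrix called 236 genes, 19 without a filter, 657 with single-cell log2 values, 90 without a variance trend and 102 to 228 with 1 capture left out. It called 1 member, Adamts14, with single-cell log2 values, rescaled cells, no replicate block or stricter limits, against 0.

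Myeloid against matrix called 861 genes and 2 members. With a pseudocount of 10 it called 183 genes and 0 members, without a filter 31 and 0, and with quantile normalized means 499 and 0. With all deposited cells it called 485 genes and 1 member, and with rescaled cells 1365 genes. With captures of at least 2 cells it called 1870 genes and 6 members. Without the myeloid cells with Col1a2 of at least 100 FPKM, chosen after seeing the data, it called 1360 genes and 5 members. The choice of cells itself can raise that count for each member those cells held, Adamts2, Adamts4 and Adamts5 included. With captures of at least 2 of the remaining myeloid cells it called 3008 genes and 8 members. With 1 capture left out it called 108 to 340 genes and 0 to 1 members.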
